A study of Caenorhabditis elegans with 36 samples.

Results

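The late-numbered miRNAs of C. elegans are those whose miRBase number is 1000 or higher. miRBase hands out numbers in the order in which miRNAs are registered, so these are the members that were catalogued late, mostly from deep sequencing. They were chosen by name, as every mature strand with such a number in the count table, and the strands of 8 hairpins with such numbers were left out (mir-1018, mir-1019, mir-1020, mir-1817, mir-1822, mir-2217b, mir-4807 and mir-5592). This gave 187 of the 437 mature strands. The 8 left-out hairpins held 14 strands, and the other 236 strands are numbered under 1000 or carry names such as let-7.

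The libraries came from 2 strains grown at 25 °C on plates and harvested each hour, 25 to 42 h after plating. HW3527 carries ebax-1(tm2321), a mutation in the gene of EBAX-1, and N2 is the wild type (WT). Each strain has 18 libraries, 1 per hour, 36 in all. The p-values therefore measure scatter around smooth curves, within windows of hours or of hourly differences. A strain cannot be told apart from its culture and library preparation.

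A miRNA hairpin is cut by the microprocessor and Dicer into a duplex of a 5p and a 3p strand. One strand is usually kept by Argonaute as the guide, while the other, the passenger, is mostly lost. EBAX-1 is the worm counterpart of ZSWIM8, a ubiquitin ligase receptor through which Argonaute and the miRNA bound to it are degraded, so a loss of EBAX-1 is known to let miRNAs that are its substrates accumulate. A hairpin can lie in an intron, where it can be transcribed with its host gene if both lie on the same strand. A hairpin that fills a whole short intron (a mirtron) is released by splicing in place of the microprocessor.

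Counts over all miRNAs were 3720038 to 8060155 per library in the mutant and 2832088 to 5579822 in WT. Levels below are in CPM, counts relative to the library total. The marker medians, the floor for strands with no count and all mean levels use the library total alone. So do the ranks and cut-offs set on mean levels. All other levels were also scaled by TMM factors, unless stated. Of the marker miRNAs for other sources of RNA, intestinal miR-60-3p had a median of 161 CPM in the mutant and 256 CPM in WT, muscle miR-1-3p 59164 and 66477 CPM, and neuronal lsy-6-3p 7.28 and 12.1 CPM. Another neuronal miRNA, miR-124-3p, had a median of 56.5 CPM in the mutant and 49.5 CPM in WT. Embryonic miR-35-3p, of the family EBAX-1 acts on, had a median of 2410 CPM in the mutant and 473 CPM in WT. The part of these shifts in the differences below was not tested, and in whole animals fewer cells of a type and less of a miRNA per cell cannot be told apart.

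Most late-numbered miRNAs were rare or not seen. Of the 187, 25 had no count in any of the 36 libraries, which allows a level of up to 0.0176 CPM (3 counts in all libraries together, counting error only). A further 117 had counts but too few to be tested. The remaining 45 passed the filter on low counts, 24.1% of the members against 80.5% of the 236 other strands (190 strands). Over 36 libraries 56 members had a count in every library. The best measured untested member, miR-8198-3p, averaged 2.13 CPM with at most 29 counts in a library, close to the lowest tested one, miR-1824-5p at 1.90 CPM.

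Abundance was concentrated in a few strands. Only 6 members averaged over 100 CPM, against 114 of the other strands, and these 6 made up 79.2% of all member counts. They were miR-1829c-5p (916 CPM), miR-1829b-5p (496 CPM), miR-1829a-5p (357 CPM), miR-1022-5p (228 CPM), miR-4816-3p (193 CPM) and miR-1820-5p (134 CPM). Next came miR-4936 (48.7 CPM), miR-1830-3p (48.1 CPM), miR-5551-5p (47.6 CPM) and miR-4813-3p (45.6 CPM). The highest of them, miR-1829c-5p, ranked 54 among all 437 strands. The median mean level was 9.59 CPM over the 45 members and 188 CPM over the 190 other strands that passed the filter.

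Detection differed between the number blocks. In the block from miR-1817 to miR-1834, 14 of 25 strands passed the filter, and 13 of 22 did in the block from miR-4805 to miR-4816. By contrast 7 of 35 passed between miR-2207 and miR-2222, 2 of 19 between miR-4920 and miR-4940, 3 of 24 between miR-5545 and miR-5595 and 5 of 56 between miR-8186 and miR-8212. Of the strands of mir-1021 and mir-1022, 1 of 3 passed. Neither strand of mir-2953 passed, nor did miR-12134, the highest-numbered member.

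**Figure D1:**
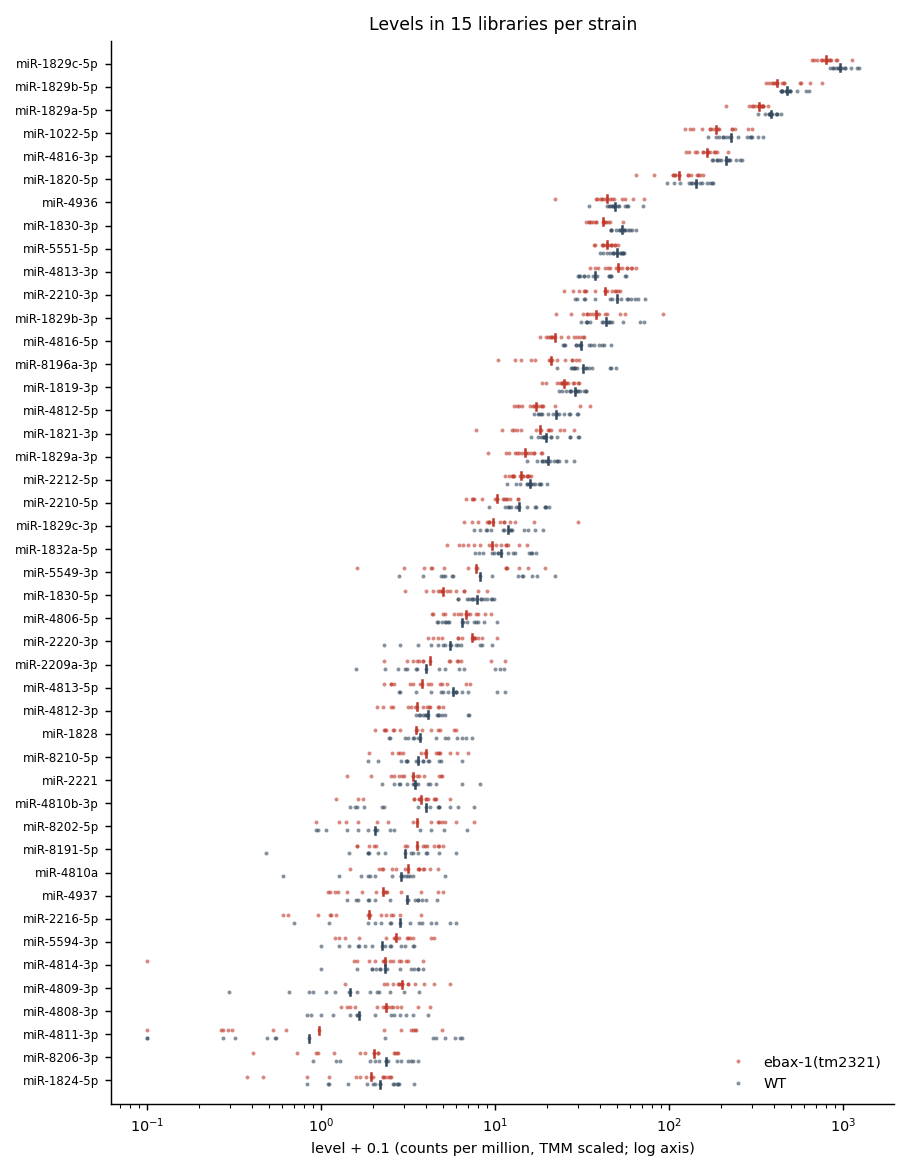
Levels of the 45 late-numbered miRNAs that passed the filter, in CPM plus 0.1 on a log axis, ordered by mean level. Each point is 1 library, with 15 libraries of the ebax-1(tm2321) mutant (upper points in each row, 28 to 42 h) and 15 of WT (lower points, 25 to 39 h), and the short bars are medians. The strains overlap in all 45 members, and miR-1829c-5p, with 799 CPM in the mutant and 958 CPM in WT at the median, is the highest.

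The 187 strands come from 107 hairpins, of which the WBcel235 annotation places 104. Of these, 45 lie in introns of protein-coding genes (35 in the direction of the host gene and 10 against it), 53 lie between genes and 6 overlap an exon. Strands of 37 hairpins passed the filter, and 8 of these hairpins did so with both strands. The miR-1829 strands came from introns of 3 genes on chromosome X. mir-1829c (chrX:15236362-15236423, minus strand) shares its host piki-1, a phosphatidylinositol 3-kinase gene, with mir-4812 (chrX:15242774-15242849). mir-1829a (chrX:15588311-15588370, minus strand) lies in gas-1, which codes for a subunit of mitochondrial complex I, and mir-1829b (chrX:14977119-14977178, plus strand) in F20D1.3. mir-1022 (chrX:6435425-6435512, minus strand) and mir-1820 (chrIV:7767461-7767567, plus strand) lie between genes. mir-4816 (chrI:6185080-6185144, plus strand) fills an intron of T09B4.2, with 0 bases left to the exon on either side, as a mirtron does. mir-4920, mir-4924, mir-4926 and mir-4927 also fill whole introns, and none of their strands passed the filter.

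More late-numbered miRNAs were lower than higher in the mutant. To compare the strains, mutant times were reduced by 3 h because the mutant develops more slowly, which paired mutant 28 to 42 h with WT 25 to 39 h in 15 aligned hours. Of 42 members tested for a mean strain difference (edgeR quasi-likelihood test, Benjamini-Hochberg adjusted p under 0.01), 2 were higher in the mutant and 20 lower. Over all 241 miRNAs tested, 24.1% were higher and 26.6% lower. Among the 190 other strands 53 were higher and 40 lower. The median difference of mutant minus WT was -0.30 (log2) over the members, -0.03 over all miRNAs and 0.02 over the other strands, and 33 of the 42 members lay below 0. With scaling by library totals, which moves the median of all miRNAs to -0.23, 1 member was higher and 28 were lower, where 14.1% of all 241 were higher and 48.1% lower. Without the filter on low counts 5 of 159 members were higher and 13 (8.18%) lower, where 22.8% of all 395 miRNAs were higher and 10.1% lower, so that the members' share of lower calls was then not above that of all miRNAs. The left-out hairpins had 9 tested strands, of which 3 were higher and 4 lower, and these are not counted among the members. Among them miR-4807 was higher by 2.30 ± 0.13 and miR-1018 by 0.71 ± 0.09 (edgeR adjusted p = 6.57e-15 and 4.72e-08).

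The same direction showed when the same counts were summed. Of the summed counts 79.2% lay in 6 strands, so the sum is not separate support. In the 15 aligned libraries of each strain the members together took 0.213 to 0.288% of all miRNA counts in the mutant (median 0.242%), against 0.299 to 0.375% in WT (median 0.337%). The strains did not overlap. The mutant share was lower in 15 of 15 aligned hours, with a difference of -0.0987 ± 0.0265 percentage points (SD of the hourly differences; exact sign-flip permutation test, two-sided, p = 6.1e-05, the smallest it can give here). Hours of a strain are not independent replicates, so this p-value measures only how steady the difference was over the hours. A share also moves with the abundant miRNAs in its denominator. With library totals the median strain difference of all 241 miRNAs was itself -0.23 (log2).

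**Figure D2:**
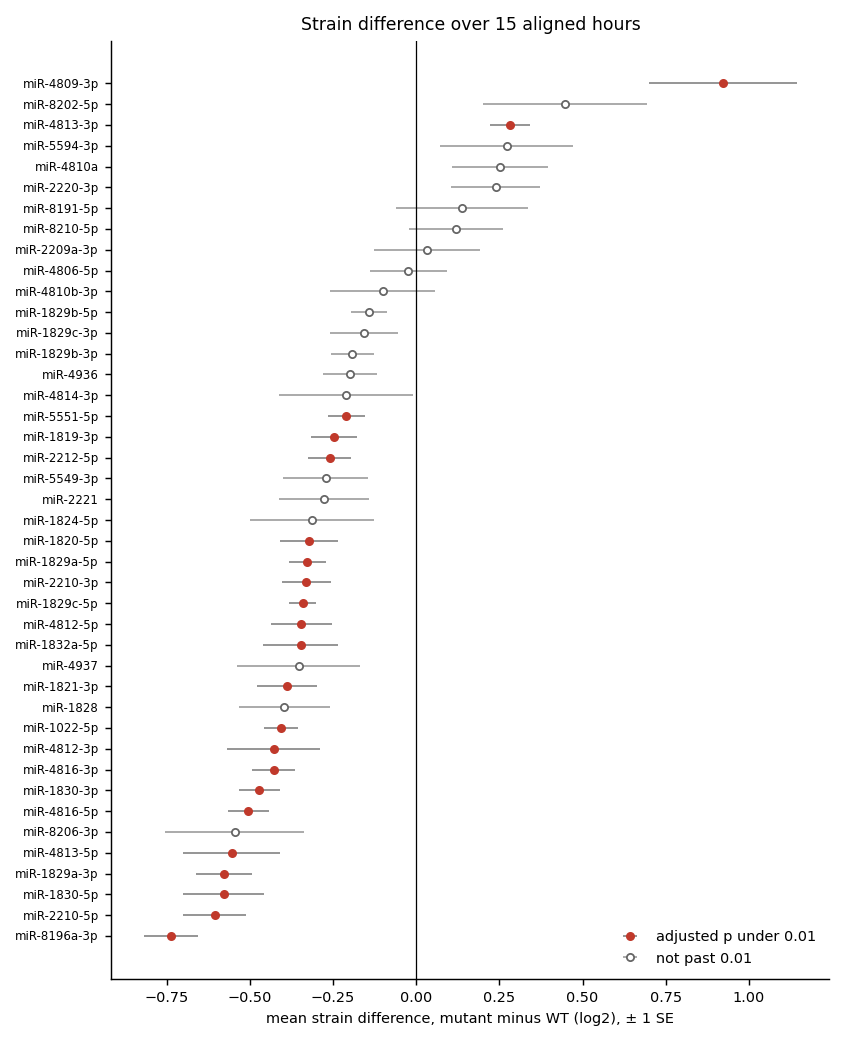
Mean strain difference of the 42 late-numbered miRNAs tested, mutant minus WT on the log2 scale with 1 standard error, over 15 aligned hours per strain. Filled points passed an adjusted p of 0.01. 20 filled points lie left of 0, down to miR-8196a-3p at -0.74, and 2 lie right of it, miR-4813-3p at 0.28 and miR-4809-3p at 0.92. In the text miR-4809-3p is described without a test.

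Most of the calls among well measured members were falls. Of the 22 tested members that averaged over 10 CPM, 17 were lower and 1 higher. Of the 20 at or below 10 CPM, 3 were lower and 1 higher, with a median standard error of 0.15 (log2) against 0.07 in the better measured ones. Over all 241 miRNAs tested 26.6% were lower and 24.1% higher, and their shares by level were not counted.

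miR-8196a-3p fell most. Its level was 10.4 to 30.4 CPM in the mutant (median 21.0) and 22.4 to 49.7 CPM in WT (median 31.9). The ranges overlapped, but the mutant was lower in 15 of 15 aligned hours. The difference was -0.74 ± 0.08 (log2 ± SE; edgeR adjusted p = 1.22e-08). The hairpin lies between genes at chrX:2328994-2329124.

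Both strands of mir-2210 were lower in the mutant. This hairpin lies wholly in the annotated 3′ UTR of ZK593.2 (chrIV:10914618-10914678, plus strand). miR-2210-5p, the less abundant strand, had 6.71 to 13.4 CPM in the mutant (median 10.2) and 9.11 to 20.2 CPM in WT (median 13.6), a difference of -0.61 ± 0.09 (edgeR adjusted p = 2.92e-06) with the mutant lower in 15 of 15 hours. miR-2210-3p had 24.9 to 52.1 CPM in the mutant (median 42.8) and 28.6 to 72.7 CPM in WT (median 50.0), a difference of -0.33 ± 0.07 (adjusted p = 3.30e-04), and without the filter on low counts this call was lost (-0.16, adjusted p = 0.0485). The ranges of both strands overlapped between the strains.

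Of the 6 miR-1829 strands, miR-1829c-5p, miR-1829a-5p and miR-1829a-3p were lower in the mutant. miR-1829c-5p had 663 to 1124 CPM in the mutant (median 799) and 837 to 1231 CPM in WT (median 958), and was lower in all 15 hours, by -0.34 ± 0.04 (edgeR adjusted p = 3.83e-08). miR-1829a-5p had 212 to 370 CPM in the mutant (median 328) and 324 to 437 CPM in WT (median 384), a difference of -0.33 ± 0.06 (adjusted p = 1.46e-05), which did not pass without the filter (-0.16, adjusted p = 0.0405). Its other strand, miR-1829a-3p, had 9.07 to 18.6 CPM in the mutant (median 14.8) and 15.1 to 28.3 CPM in WT (median 19.9), a difference of -0.58 ± 0.08 (adjusted p = 1.23e-06). For both strands of mir-1829a the ranges of the strains overlapped. miR-1829b-5p, with a difference of -0.14 ± 0.05, did not pass the threshold (adjusted p = 0.0235), nor did miR-1829b-3p (-0.19 ± 0.06, adjusted p = 0.0117) or miR-1829c-3p (-0.16 ± 0.10, adjusted p = 0.182). Reads that matched several positions were kept in the counts, so lettered members such as these may share reads, and their sequences were not compared here.

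The mirtron-like mir-4816 also fell on both strands. miR-4816-3p had 124 to 219 CPM in the mutant (median 165) and 176 to 262 CPM in WT (median 212), a difference of -0.43 ± 0.06 (edgeR adjusted p = 1.72e-06). miR-4816-5p had 17.9 to 32.5 CPM in the mutant (median 22.03) and 24.6 to 46.5 CPM in WT (median 31.2), a difference of -0.50 ± 0.06 (adjusted p = 6.81e-08). The mutant was lower in 14 of 15 hours for the 3p strand and in all 15 for the 5p strand, and the ranges overlapped.

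Both strands of mir-1830 were lower as well. The hairpin sits in an intron of paic-1, which codes for an enzyme of purine synthesis (chrII:4371838-4371907, minus strand). miR-1830-3p had 33.2 to 54.2 CPM in the mutant (median 41.6) and 46.1 to 64.5 CPM in WT (median 53.3), a difference of -0.47 ± 0.06 (edgeR adjusted p = 2.48e-07). miR-1830-5p had 2.92 to 8.94 CPM in the mutant (median 4.94) and 6.05 to 9.72 CPM in WT (median 7.80), a difference of -0.58 ± 0.12 (adjusted p = 1.94e-04). Each was lower in the mutant in 14 of 15 hours.

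Further members were lower in the mutant. miR-1022-5p had 124 to 301 CPM in the mutant (median 187) and 166 to 348 CPM in WT (median 226), a difference of -0.41 ± 0.05 (edgeR adjusted p = 1.06e-07), which was -0.10 and no longer passed when the mutant times were not shifted. miR-1820-5p (-0.32 ± 0.09) and miR-5551-5p (-0.21 ± 0.06) passed the threshold, but with 1 library left out they lost it for 10 of the 30 libraries (-0.22 to -0.27) and for 22 of them (-0.14 to -0.16). Neither passed without the filter on low counts (-0.15 for miR-1820-5p and -0.04 for miR-5551-5p), nor did miR-1820-5p without the time shift (-0.23). The 2 strands of mir-4812 had differences of -0.35 ± 0.09 (miR-4812-5p, adjusted p = 1.90e-03) and -0.43 ± 0.14 (miR-4812-3p, adjusted p = 0.00935), and the call of the 3p strand was lost for 25 of the 30 libraries left out singly (-0.31 to -0.43). Neither strand passed without the filter (-0.18 for the 5p and -0.26 for the 3p strand). miR-4936, with -0.20 ± 0.08, did not pass (adjusted p = 0.0359). A further 4 members of the 20 that fell had differences within the range of those named, and the smallest fall among all 20 was -0.21.

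miR-4813-3p and miR-4809-3p were higher in the mutant. miR-4813-3p had 35.1 to 64.3 CPM in the mutant (median 50.8) and 29.8 to 56.6 CPM in WT (median 37.2), and was higher in 14 of 15 hours by 0.28 ± 0.06 (edgeR adjusted p = 2.18e-04). The other strand of the same hairpin, miR-4813-5p, was lower in the mutant, with 2.196 to 7.10 CPM (median 3.68) against 2.70 to 11.3 CPM in WT (median 5.67), a difference of -0.56 ± 0.14 (adjusted p = 1.61e-03). mir-4813 lies wholly in the annotated 3′ UTR of idhg-1, which codes for a subunit of isocitrate dehydrogenase (chrIII:4571640-4571716, plus strand). The log2 ratio of the 3p to the 5p strand was 3.19 in the mutant and 2.52 in WT (scaled counts plus 8), a difference of 0.67 ± 0.11 (limma, adjusted p = 6.66e-06). It was the only call among the 8 member hairpins with both strands tested, where 36% of all 86 hairpins tested were called. The call of miR-4813-3p was lost with library totals (0.08), with limma on log2 values (0.08) and with a shift of 4 h (0.22, adjusted p = 0.0104). That of miR-4813-5p was lost without the time shift (-0.30) and without the filter (-0.41, adjusted p = 0.0204).

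miR-4809-3p is rare, with 1.28 to 5.39 CPM in the mutant (median 2.7998) and 0.195 to 3.58 CPM in WT (median 1.36). The mutant was higher in 13 of 15 hours although the ranges overlapped. The difference was 0.92 ± 0.22 (log2; edgeR adjusted p = 8.47e-04).

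In the joint test of all 7 strain coefficients 15 of 42 members passed, where 45.2% of all miRNAs did. In the test of the 6 strain-by-time coefficients no member passed with edgeR (7.47% of all miRNAs did), 6 had an unadjusted p under 0.05, and limma on the log2 values called 1. In windows of aligned hours, the first (25 to 30 h) had 0 members higher and 7 lower, where 13.7% and 13.3% of all miRNAs were. The middle window (31 to 36 h) had 2 higher and 12 lower, where 16.2% and 19.1% of all were, and the last (37 to 39 h) had 0 higher and 3 lower, where 9.96% and 4.98% were. The 12 lower members became 2 to 7 when any of 26 of the 30 libraries was left out, and 2 without WT 34 h or mutant 37 h. The 7 in the first window became 4 without WT 28 h or mutant 29 h, and the 3 in the last became 0 without mutant 40 h or 42 h. The 3 in the last window were miR-8196a-3p, miR-2210-5p and miR-1022-5p. miR-8196a-3p differed by -0.63 ± 0.15, -0.77 ± 0.15 and -0.95 ± 0.23 in the 3 windows in order of time, and passed in each.

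Members changed between early and late windows in both strains, at shares close to those of all miRNAs. Windows were set in each strain with mutant hours 28 to 33, 34 to 39 and 40 to 42 (6, 6 and 3 libraries) and WT hours 25 to 30, 31 to 36 and 37 to 42 (6 libraries each). After the 3 h shift the first and middle windows match, while the last WT window runs 3 h past that of the mutant. In the mutant, 11 of 45 members were higher in the last window than in the first and 6 were lower, where 19.3% and 17.2% of all 244 miRNAs were, and the 11 became 6 without mutant 42 h. In WT 13 were higher and 15 lower, where 31.1% and 32.8% of all were. With the last WT window ended at 39 h to match the mutant, a choice made after seeing the data, 9 members were higher and 10 lower in WT, where 25% and 22.1% of all were, and still no member passed the test of the difference. No member passed the edgeR test of the difference between the strains' changes (4 had an unadjusted p under 0.05), for which 2.05% of all miRNAs passed. In the mutant 20 of 45 members had first and last windows that did not overlap (46.3% of all miRNAs), and in WT 19 of 45 (43.9%).

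**Figure D3:**
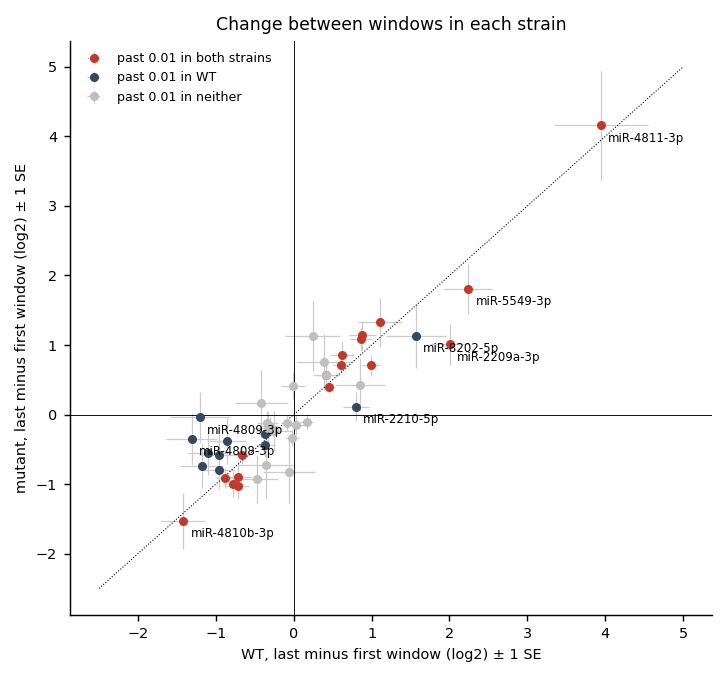
Fitted change between the last and the first window of each of the 45 members, mutant on the vertical and WT on the horizontal axis (log2, ± 1 standard error), with a dotted line of equal change. miR-4811-3p, described without a test, stands at the top right with 4.16 in the mutant and 3.94 in WT, and miR-4810b-3p at the bottom left with -1.53 and -1.42.

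miR-4811-3p was nearly absent early and appeared late. Its hairpin lies between genes (chrX:7185347-7185429, minus strand). In the mutant it had 0 to 2 counts per library at 28 to 33 h, 4 to 17 counts at 34 to 39 h and 12 to 16 counts at 40 to 42 h. In WT it had 0 to 4 counts at 25 to 30 h, 1 to 26 counts at 31 to 36 h and 10 to 26 counts at 37 to 42 h. No library of the last window was as low as any of the first in either strain. In WT the level was 0.22 CPM at 32 h, 2.22 CPM at 33 h and 6.34 CPM at 35 h, and in the mutant it was 0.88 CPM at 35 h and 2.79 CPM at 36 h, so that the step came 3 h later by the clock. The fitted change was 4.16 (log2) in the mutant and 3.94 in WT, on these low first-window counts. Because the miRNA passed the filter only through the libraries in which it is high, these are descriptions with no test, although it is among the members counted above as higher in the last window.

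miR-5549-3p had a higher median in each later window. It comes from chrIII:6971976-6972085, between genes. In the mutant it had 1.503 to 7.79 CPM in the first window (median 4.20), 2.89 to 13.6 CPM in the middle (median 9.53) and 11.5, 15.3 and 19.2 CPM in the last. In WT it had 2.69 to 5.62 CPM (median 4.92), 4.91 to 14.3 CPM (median 11.4) and 16.2 to 26.0 CPM (median 22.4) in the same order. First and last windows did not overlap in either strain, and the change was 1.80 ± 0.36 in the mutant and 2.24 ± 0.30 in WT (edgeR adjusted p = 1.18e-04 and 1.70e-07).

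miR-2209a-3p was highest in the last window. In the mutant it had 3.01 to 5.97 CPM (median 3.51), 2.196 to 6.31 CPM (median 4.53) and then 4.12, 9.44 and 11.3 CPM, and in WT 1.49 to 3.93 CPM (median 2.803), 3.03 to 6.52 CPM (median 4.87) and 9.63 to 13.3 CPM (median 10.9). The windows overlapped in the mutant through the library at 4.12 CPM and did not in WT. The change was 1.01 ± 0.29 in the mutant (edgeR adjusted p = 4.54e-03) and 2.001 ± 0.25 in WT (adjusted p = 4.84e-08), and the call in the mutant was lost without mutant 28 h (0.93), 29 h (0.95), 41 h (0.96) or 42 h (0.74), with library totals (0.87) and with limma (0.61). mir-2209a belongs to a run of hairpins on chromosome IV, with mir-2208b (chrIV:1026580-1026640) upstream and mir-2209c (chrIV:1027218-1027281) 53 bases downstream on the same strand. miR-2208b-3p, which was too rare to be tested, had medians of 1.45, 1.81 and 1.61 CPM in the 3 mutant windows and 1.34, 3.04 and 3.15 CPM in the WT windows (library totals, 4 to 18 counts each). miR-2209c-3p had 0 to 7 counts per library in these windows.

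Other members also rose. miR-2210-3p rose by 0.71 ± 0.14 in the mutant and 0.99 ± 0.12 in WT (edgeR adjusted p = 1.16e-04 and 1.90e-08). Its other strand, miR-2210-5p, changed by 0.11 ± 0.21 in the mutant (adjusted p = 0.645) and 0.80 ± 0.16 in WT (adjusted p = 7.38e-05), a difference between the strains that did not pass (adjusted p = 0.233). miR-4937, from an intergenic hairpin at chrIV:1381705-1381814, had a fitted change of 1.33 in the mutant and 1.11 in WT. The mutant value was 1.11 without mutant 40 h, 1.20 without 42 h and 1.11 with the window borders 1 h later. With the WT window ended at 39 h the WT value was 0.93. Its counts per library were 6 to 11 in the first mutant window and 10 to 18 in the last, and 6 to 16 and 10 to 20 in WT. Because it passed the filter mostly through later libraries, in which it is high, these are descriptions with no test. It is still among the members counted above as higher in the last window of each strain. miR-4812-5p rose by 0.86 ± 0.19 in the mutant, a call lost without mutant 42 h (0.68), and by 0.62 ± 0.16 in WT, lost with library totals (0.31), with limma (0.29) and with the WT window ended at 39 h (0.44). miR-8202-5p, from an intron of unc-77, a gene for a sodium leak channel, had a fitted change of 1.13 in the mutant and 1.57 in WT. With the WT window ended at 39 h the WT value was 1.38. Its counts per library were 4 to 20 in the first mutant window, 18 to 41 in the middle and 5 to 26 in the last. In WT they were 5 to 14, 3 to 20 and 9 to 35. It too passed the filter mostly through later libraries, so these are descriptions with no test. It is still among the members counted above as higher in WT.

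Of the miR-1829 strands, those of mir-1829b and mir-1829c rose over time. miR-1829b-5p had 359 to 459 CPM in the first mutant window (median 394), 404 to 565 CPM in the middle (median 431) and 576, 642 and 753 CPM in the last, a change of 0.72 ± 0.12 (edgeR adjusted p = 2.01e-05). In WT it had 443 to 493 CPM (median 458), 441 to 495 CPM (median 472) and 547 to 931 CPM (median 674), a change of 0.61 ± 0.10 (adjusted p = 5.04e-06). First and last windows did not overlap in either strain, and in WT the first and middle windows overlapped. miR-1829b-3p rose by 1.08 ± 0.17 in the mutant and 0.86 ± 0.14 in WT, and miR-1829c-3p by 1.14 ± 0.21 and 0.88 ± 0.17. miR-1829c-5p had rises of 0.40 ± 0.09 and 0.46 ± 0.07, the first of which was not called without mutant 42 h (0.29). miR-1829a-5p showed no call in either strain, with changes of -0.12 ± 0.11 in the mutant and -0.08 ± 0.09 in WT. Its levels spanned 301 to 370 CPM over the first and last mutant windows and 212 to 346 CPM in the middle one. miR-1829a-3p was not called either, with -0.12 ± 0.17 in the mutant and -0.34 ± 0.13 in WT (edgeR adjusted p = 0.555 and 0.0240). Whether miR-1829a and miR-1829b differ in their change was not tested. The rise of miR-1829c-5p in WT did not pass with library totals (0.15) or limma (0.15).

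**Figure D4:**
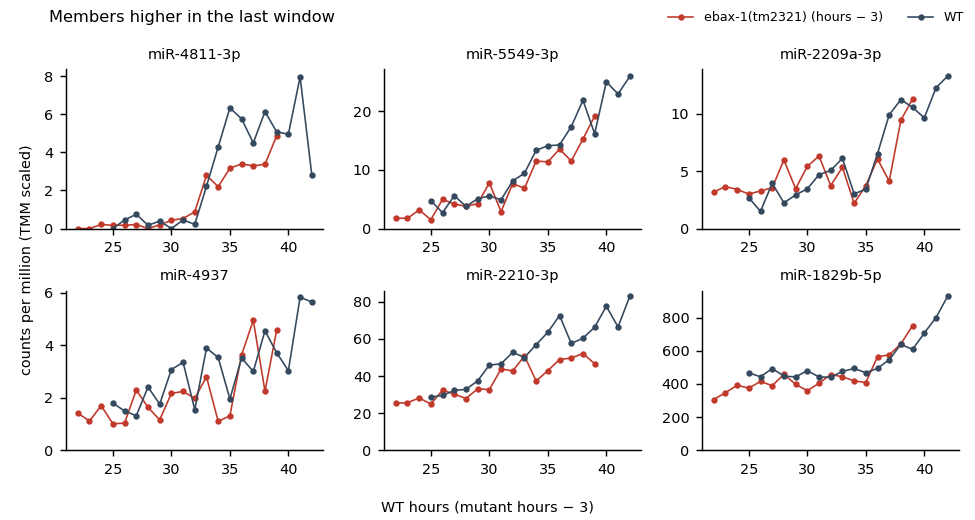
Time courses of 6 members that were higher in the last window, in CPM from 0, with 1 point per library, ebax-1(tm2321) first in the legend and drawn 3 h to the left, WT at its own hours. miR-4811-3p is under 1 CPM in both strains until 32 h on this axis and reaches 4.88 CPM in the mutant and 7.97 CPM in WT.

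The members that were lower in the last WT window included every strand that passed the filter from a run of member hairpins on chromosome X. mir-4808, mir-4809, mir-2220, mir-4810b and mir-4810a lie in this order between chrX:1872952 and chrX:1875794 on the plus strand, outside protein-coding genes, and each is 122 to 1662 bases from the next. Directly upstream is the left-out mir-4807, whose only strand was higher in the mutant by 2.30 ± 0.13 (edgeR adjusted p = 6.57e-15). Between the first and last windows miR-4807 changed by -0.48 ± 0.23 in WT, which did not pass (adjusted p = 0.0733). In the mutant it changed by -0.75 ± 0.21 (adjusted p = 4.45e-03).

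All of these strands were rare. miR-4810b-3p had 3.34 to 5.39 CPM in the first mutant window (median 4.12), 3.55 to 4.39 CPM in the middle (median 3.78) and 1.12, 1.52 and 1.65 CPM in the last, and in WT 4.12 to 7.45 CPM (median 5.01), 1.46 to 4.69 CPM (median 1.93) and 0.282 to 3.90 CPM (median 2.14). The last window lay wholly below the first in both strains. The change was -1.53 ± 0.40 in the mutant and -1.42 ± 0.29 in WT (edgeR adjusted p = 2.03e-03 and 6.76e-05), and without mutant 41 h the mutant call was lost (-1.30). miR-2220-3p changed by -0.59 ± 0.31 in the mutant (adjusted p = 0.108) and fell by 0.96 ± 0.26 in WT (adjusted p = 1.54e-03). With the WT window ended at 39 h the WT change was -0.65 and did not pass (adjusted p = 0.0610). miR-4810a changed by -0.74 ± 0.32 in the mutant (adjusted p = 0.0547) and fell by 1.18 ± 0.28 in WT (adjusted p = 4.16e-04). Its counts per library in WT were 9 to 21 in the first window and 3 to 6 in the last.

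miR-4808-3p and miR-4809-3p had the flattest courses of the run in the mutant. miR-4808-3p had 7 to 21 counts per library in the first mutant window and 5 to 10 in the last, and 8 to 21 and 2 to 8 in WT. Its fitted change was -0.35 (log2) in the mutant and -1.31 in WT. Because it passed the filter mostly through libraries in which it is high, these are descriptions with no test, although it is among the members counted above as lower in WT. miR-4809-3p changed by -0.04 ± 0.37 in the mutant (edgeR adjusted p = 0.925) and fell by 1.20 ± 0.38 in WT (adjusted p = 6.11e-03). In WT 7 of the 36 libraries left out in turn cost miR-4809-3p the call (WT 25, 28, 30, 38, 39, 41 and 42 h, with -0.93 to -1.18). It also missed the threshold without the filter (-1.11) and with the WT window ended at 39 h (-1.36, adjusted p = 0.0194). Its counts per library in WT were low, 7 to 15 in the first window and 1 to 6 in the last. The difference of the changes for miR-4809-3p, 1.16 ± 0.54, did not pass (adjusted p = 0.338). Its fitted strain difference was 0.40, 1.29 and 1.80 in the 3 aligned windows in order of time. These too are descriptions with no test, although it is among the members counted as higher in the middle window. The mean strain differences of miR-2220-3p (0.24 ± 0.13), miR-4810b-3p (-0.10 ± 0.16) and miR-4810a (0.25 ± 0.14) did not pass the threshold. miR-4808-3p was too rare for that test.

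**Figure D5:**
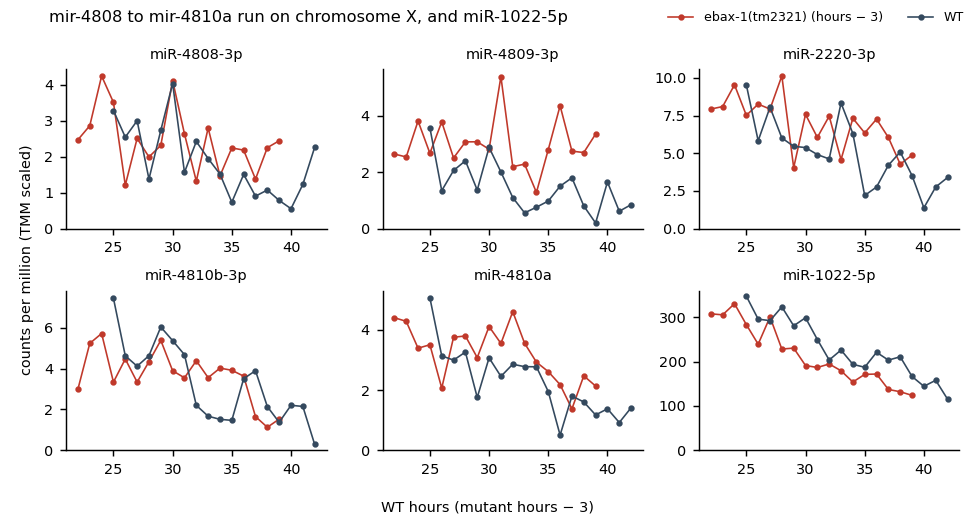
Time courses of the 5 strands of the mir-4808 to mir-4810a run and of miR-1022-5p, in CPM from 0, with 1 point per library, ebax-1(tm2321) first in the legend and drawn 3 h to the left, WT at its own hours. miR-4809-3p stays between 1.28 and 5.39 CPM in the mutant, and miR-1022-5p declines in both strains, by -0.91 in the mutant and -0.88 in WT.

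miR-1022-5p was the most abundant member that fell. It had 191 to 301 CPM in the first mutant window (median 234.9), 154 to 195 CPM in the middle (median 176) and 124, 132 and 137 CPM in the last, against 281 to 348 CPM (median 298), 187 to 250 CPM (median 212) and 115 to 211 CPM (median 162) in WT. The first and last windows did not overlap, and the change was -0.91 ± 0.15 in the mutant and -0.88 ± 0.11 in WT (edgeR adjusted p = 9.42e-06 and 9.00e-08). miR-8196a-3p fell alongside, with changes of -0.998 ± 0.18 in the mutant and -0.78 ± 0.14 in WT (adjusted p = 4.25e-05 and 1.15e-05). In the last mutant window it was down to 10.4, 12.9 and 16.9 CPM, against 18.7 to 28.5 CPM in the last WT window.

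Other falls were called in WT. miR-2221 changed by -0.55 ± 0.31 in the mutant and fell by 1.10 ± 0.25 in WT (edgeR adjusted p = 0.138 and 2.64e-04). miR-1828, from an intron of pash-1 (chrI:10600463-10600525), the gene of the microprocessor subunit that recognises hairpins, changed by -0.79 ± 0.29 in the mutant and fell by 0.97 ± 0.21 in WT (adjusted p = 0.0216 and 1.65e-04). miR-4813-3p fell in both, with -0.58 ± 0.13 in the mutant and -0.67 ± 0.11 in WT, and miR-4813-5p changed by -0.38 ± 0.32 and -0.85 ± 0.25, called in WT but not without WT 29 h (-0.71), without the filter (-0.76), with the window borders 1 h later (-0.76) or with the WT window ended at 39 h (-0.63). The strands of mir-4816 changed by -0.28 ± 0.11 (3p) and -0.44 ± 0.15 (5p) in the mutant and by -0.37 ± 0.09 and -0.37 ± 0.12 in WT, where both were called and the 5p call was lost without any 1 of 9 WT libraries (25, 26, 27, 30, 37, 38, 39, 41 and 42 h, -0.31 to -0.38), without the filter (-0.27), with the borders 1 h later (-0.31) and under DESeq2 scaling (-0.33). None of these changes was shown to differ between the strains.

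Within strains, 14 of the 32 members kept in the mutant changed over its 18 hours (59% of all miRNAs did) and 19 of the 30 kept in WT (72.5%). No member passed an edgeR test for a rhythm with a period of 7 h over 11 libraries of a strain, neither of 32 in the mutant (0% of all, 2 members with an unadjusted p under 0.05) nor of 29 in WT (13.2% of all, 5 members with an unadjusted p under 0.05). DESeq2 size factors gave 1 call in WT.

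Strain differences were also counted by genome position, strand type and number block. Of 20 tested strands from introns in the host's direction 10 were lower and none higher, with a median of -0.33 (log2), and of 17 intergenic strands 7 were lower and 1 higher (median -0.26). Of the 8 tested strands that were the less abundant ones of their hairpins, 6 were lower and none higher (median -0.53), against 14 lower and 2 higher of 34 more abundant or only strands (median -0.27). From miR-1817 to miR-1834, 9 of 14 were lower (median -0.33), from miR-2207 to miR-2222 3 of 6 (median -0.27), and from miR-4805 to miR-4816 5 of 11 with 2 higher (median -0.21). From miR-8186 to miR-8212, 1 of 5 was lower, miR-8196a-3p, and the median was 0.12. Over all 241 miRNAs tested 26.6% were lower and 24.1% higher, and their shares by position, strand type or number were not counted. No set of these was tested against another.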

How the data were processed

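Small RNA libraries had been made with the CleanTag kit and sequenced by the authors. They trimmed adapters with QuasR, aligned reads to ce10 with Bowtie, allowing up to 100 matching positions, and counted same-strand reads that began within 3 bases of a mature 5′ end in miRBase version 22. No tool versions are stated (not given in the sources used here). As deposited, the count table holds these reads as whole numbers, without normalization. The authors' second deposited table gives log2 of the count divided by the library total, times the mean total, plus 8. Recomputation from the counts differed by at most 5.0e-04, and the table was used only in the limma alternative's scale.

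The counts were tested with edgeR 4.0.16 (R 4.3.3) after filterByExpr by strain (minimum count 10) and TMM scaling, fitted on all miRNAs with Benjamini-Hochberg adjustment at 0.01. The strain fit held strain and a cubic spline curve over the aligned hours (6 B-spline components). The stage fit used window means over all 36 libraries, with mutant 25 to 27 h as a window of its own, and its errors come from the scatter within windows. Standard errors are the log2 difference divided by the square root of F. Strand ratios were tested with limma 3.58.1 with a trend. Of the 45 members that passed the filter, 29 also passed in each strain alone, 3 passed in the mutant alone, 1 in WT alone and 12 only with both together.

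Named were the 10 most abundant members, up to 10 in each direction past the threshold for strain and for WT stage, those past the strand ratio test, and other strands of these hairpins. The members and lists were chosen with earlier results of these data known. The fits were tested on simulated data. Alternatives were DESeq2 1.42.0, other scalings and filters, other time shifts, splines and windows, and each library left out. Groupings by shared seed were not run, since no strand sequences were used here. Hairpin positions are from the WBcel235 annotation, a build other than that of the counts, and no position was converted. The floor for strands with no count covers counting error only.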

Additional observations from a re-analysis of the deposited data

How the results depend on the processing

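Each value given for a single member was set against each alternative in turn, and a value uncalled in both settings counts as kept. Over the alternatives other than leaving out libraries, 540 such comparisons kept their direction and side of the threshold, 35 lost a call, 36 gained one and 11 changed sign. Yet most strain differences of single members changed call or sign in at least 1 of 10 alternatives. Those of miR-4816-5p, miR-4816-3p, miR-1830-5p, miR-1830-3p, miR-2210-5p, miR-8196a-3p, miR-1829c-5p and miR-1829a-3p held in all 10. That of miR-4809-3p, described without a test, also kept its direction and side of the threshold. Over the libraries left out in turn 2691 did so, 83 lost a call, 7 gained one and 5 changed sign, and no called value changed sign. With library totals, 1 member was higher in the mutant over all hours, 23 passed the joint test, 24 were lower at 25 to 30 h, 1 higher and 20 lower at 31 to 36 h, 7 lower at 37 to 39 h, and 11 fell in the mutant. Differences that did not pass then changed sign for miR-2209a-3p between strains (-0.16) and miR-2210-5p between mutant windows (-0.029). Of all miRNAs, 14.1% were higher and 48.1% lower with library totals. Without the filter, 5 members were higher and 13 lower (22.8% and 10.1% of all miRNAs), 7 passed the joint test, 4 were higher and 1 lower at 31 to 36 h, 1 higher and 0 lower at 37 to 39 h, and strain differences that had not passed changed sign for miR-4810b-3p (0.055), miR-1829b-5p (0.028) and miR-1829c-3p (0.0090), as did the WT change of miR-1829a-5p (0.017). Counting any strand with a read as detected gave 162 members, and testing the strand ratio of all hairpins with reads on both strands called 7 member hairpins. Where no share of all miRNAs or hairpins stands beside a count in this section, the count cannot set members against the rest. DESeq2 size factors gave 1 rhythm call in WT and 5 members lower at 37 to 39 h. limma on log2 values gave 1 member higher, 25 in the joint test, 1 in the strain-by-time test and 11 that fell in the mutant, with miR-2209a-3p at -0.13 between strains. That difference was -0.083 with a shift of 2 h and -0.26 with none. With the last WT window ended at 39 h, chosen after seeing the data, 9 members rose and 10 fell in WT and 6 values for single members lost their call. With a shift of 4 h 1 member passed the strain-by-time test. With none, 2 did, 4 members were higher, and miR-2221 (0.0055) and miR-4810b-3p (0.20) changed sign.

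With 1 library left out, the members lower in the mutant numbered 15 to 21 and those higher 2 to 3. The strain-by-time test gave 0 to 1, the rises in the mutant 6 to 11 (6 without mutant 42 h), and the members lower at 25 to 30 h 4 to 8, at 31 to 36 h 2 to 12 and at 37 to 39 h 0 to 6, with 0 to 1 higher in that window (window runs chosen after seeing the data). miR-4810b-3p ranged over -0.15 to 0.063 between strains and miR-4809-3p over -0.14 to 0.085 between mutant windows. The cause of these changes was not tested. At the depth of these libraries 142 of the 187 members had too few counts to test. With the aligned hour as a factor, 2 members were higher and 19 lower.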
